A study of Mus musculus with 4 samples.

Results

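The 44 genes described here encode the phosphoinositide 3-kinase (PI3K), AKT and mTOR pathway, with its TSC, Rag GTPase, GATOR1, AMPK and S6 kinase branches. They were taken from a fixed list of symbols, matched through the unversioned gene identifier, and made up 44 of the 50600 genes counted in each library. RNA-seq was carried out on primary T cells from mice of the strain C57BL/6NJ. The 4 libraries form a single group and are numbered as biological replicates 1 to 4. According to the file headers the cells were Th0 cells, helper T cells activated without lineage-directing cytokines, sampled at 16 h. The protocol linked for their differentiation carries CD4+ T cells in its name. No genotype, treatment or age beyond this was given in the sources used here, and the sex of the animals was not collected. The 4 biosamples share a donor identifier, and it was not stated whether they came from separate animals, so the spread below may be technical in part. The series held no second condition, so the comparisons are between genes within a library and between replicates.

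Class I PI3K is recruited to activated receptors at the plasma membrane, among them the T cell receptor and CD28, and makes the lipid PIP3, which brings PDK1 and AKT together at the membrane. AKT switches off the TSC complex and thereby frees the small GTPase Rheb to activate mTOR complex 1 on the lysosome, where the Rag GTPases and Ragulator bring mTOR when amino acids are present. In T cells the pathway is known for driving growth and protein synthesis after activation, and AMPK, the sensor of low cellular energy, opposes it.

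Levels are given as TPM, the read pairs of a gene over its summed exonic length, scaled to the same total in each library, as mean ± SD over 4 libraries (n = 4) or for replicates 1, 2, 3 and 4 in that order. Libraries held between 46192242 and 63313389 counted read pairs. All 5 T cell markers were present, with a summed level of 3190 to 3331 TPM, and Cd4 lay at 748.7 ± 30.2 TPM. None of the 5 B cell markers and none of the 14 markers of macrophages, dendritic cells, neutrophils and natural killer cells reached 1 TPM in every library. Bulk RNA does not separate the share of cells that express a gene from the RNA per cell.

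The pathway was present almost whole. In every library 41 of the 44 genes (93.2%) lay at 1 TPM or more, against 45.2% of the 21764 protein-coding genes. The exceptions were Pik3r3, Pik3ap1 and Prkaa2. The list was drawn up with earlier results of these data known, so the contrast of these shares is a description only. Most members were not especially abundant. The median member of the whole list lay at 32.5 ± 2.07 TPM and the median over the 41 detected members at 34.7 ± 1.70 TPM, beside 32.8 ± 0.865 TPM for all 9847 detected protein-coding genes, and 22 of the 41 stood above the median of those genes. Pik3cd and Akt1 were the highest members and exceeded about 94% of detected protein-coding genes each, at 94.2% and 94.1%.

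**Figure D1:**
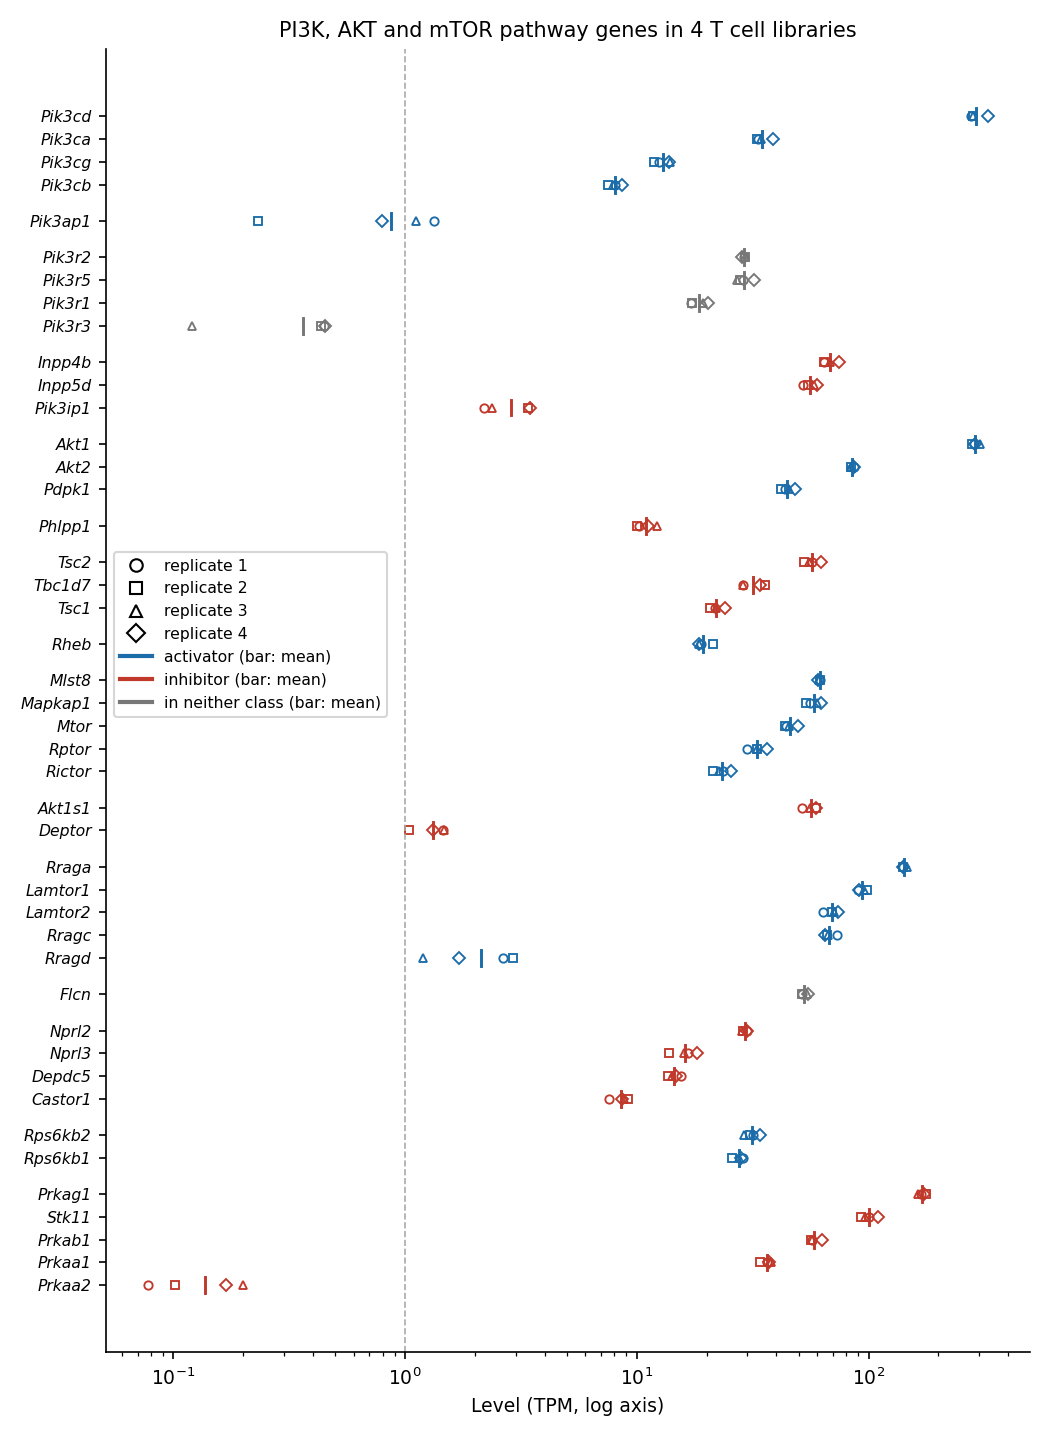
Level of each of the 44 pathway genes in TPM on a log axis, with 1 symbol per replicate and a vertical bar at the mean. Genes are grouped by role and coloured as activators, inhibitors or neither, and the dashed line marks 1 TPM. Pik3cd at 291.8 TPM and Akt1 at 288.7 TPM stand at the right, and Prkaa2, Pik3r3 and Pik3ap1 lie below or across the line.

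Of the 4 class I catalytic subunits, Pik3cd dominated. It encodes p110delta, the leukocyte-enriched catalytic subunit that acts downstream of antigen receptors. Pik3cd (ENSMUSG00000039936.18, mm10 chromosome 4, 149649168 to 149702571, minus strand) lay at 275.4, 282.0, 283.2 and 326.8 TPM in the 4 libraries. Replicate 4 stood above the other libraries, which lay close together. Pik3ca, encoding the ubiquitous p110alpha, lay at 34.8 ± 2.72 TPM. Pik3cg, which encodes p110gamma, the subunit coupled to G protein-coupled receptors, lay at 12.99 ± 0.974 TPM, and Pik3cb, encoding p110beta, at 8.02 ± 0.477 TPM. The order was the same in each library. Pik3cd exceeded Pik3ca 8.38 ± 0.149-fold, Pik3cg 22.5 ± 1.63-fold and Pik3cb 36.4 ± 1.79-fold. It made up 83.9 ± 0.44% of the summed TPM of the 4 genes, with 10.02 ± 0.13% from Pik3ca, 3.74 ± 0.261% from Pik3cg and 2.31 ± 0.106% from Pik3cb. The closest neighbours, Pik3cg and Pik3cb, differed in the same direction in 4 of 4 libraries, by 0.63 ± 0.075 in log2(TPM + 1).

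All such pairs were treated alike. The difference of log2(TPM + 1) between 2 genes was taken within each library for 30 pairs, 13 of paralogues and 17 of partners in a complex or step. All 30 had 1 direction in 4 of 4 libraries. The exact two-sided sign-flip permutation test gave p = 0.125 for every pair, before and after Benjamini-Hochberg adjustment, which is the smallest value that 4 libraries can give, so no pair could pass 0.05. Gene length entered these comparisons, and 8 of the 30 pairs turned direction when the counts were not divided by length, or were divided by the length of the principal annotated transcript (the isoform annotated as the gene's main one) in place of all exons. Those pairs are named below.

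**Figure D2:**
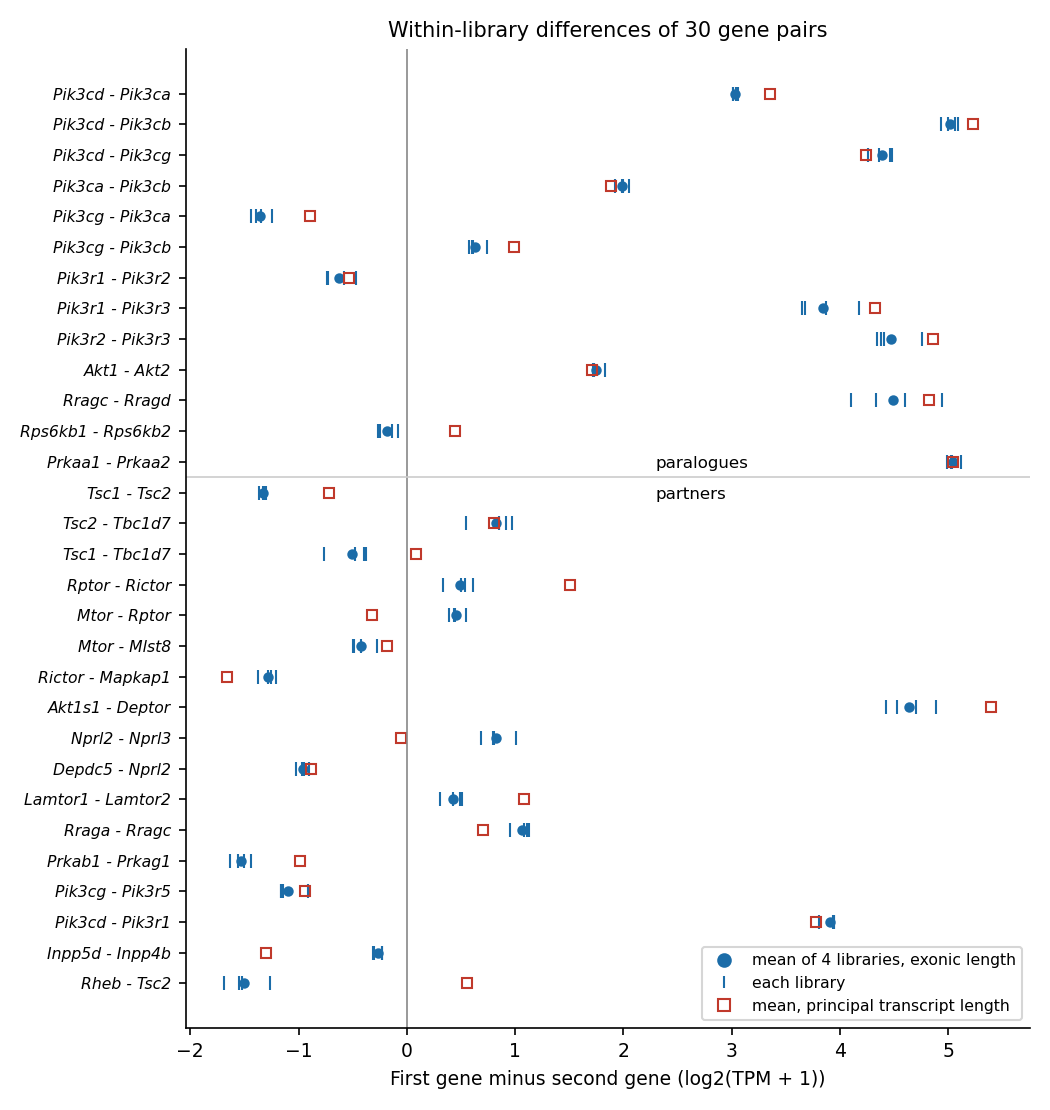
Within-library difference of log2(TPM + 1) for 30 gene pairs, first gene minus second. Filled points are means of 4 libraries with exonic length, ticks are the single libraries, and open squares are means with the principal transcript length. The class I catalytic pairs keep their side of 0 under both lengths, while the squares of 5 pairs (Rps6kb1 and Rps6kb2, Tsc1 and Tbc1d7, Mtor and Rptor, Nprl2 and Nprl3, Rheb and Tsc2) lie across 0 from their points.

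In summed TPM the class IA regulatory genes lay below the class IA catalytic genes, and Pik3cd made up most of the catalytic sum. The class IA regulatory proteins stabilise p110 and dock it on phosphotyrosine, and restrain its basal activity. Pik3r2, encoding p85beta, lay at 29.0 ± 0.448 TPM, and Pik3r1, encoding p85alpha and its shorter forms, at 18.5 ± 1.52 TPM. Pik3r1 stood below Pik3r2 in each library, by -0.73, -0.73, -0.58 and -0.47 on the log2(TPM + 1) scale. The mean of -0.63 turned to 0.60 when CPM (counts scaled to the library total, with no length) was used, and stayed at -0.53 with the principal transcript length. Pik3r2 made up 60.7 ± 2.16% of the TPM of the 3 class IA regulatory genes. The 3 class IA catalytic genes together had 6.99 ± 0.43 times the summed TPM of the 3 regulatory genes, and 6.40 ± 0.39 times by principal transcript length. This excess rested on Pik3cd. Pik3ca lay at 34.8 ± 2.72 TPM and Pik3cb at 8.02 ± 0.477 TPM, beside 47.9 ± 1.15 TPM for the summed regulatory genes. Protein amounts were not measured. Between Pik3cd and Pik3r1 alone the ratio was 15.8 ± 0.738, a log2(TPM + 1) difference of 3.91 that was 3.27 without length.

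Pik3r3, encoding p55gamma, was the third regulatory gene and nearly silent. Its levels were 0.44, 0.43, 0.12 and 0.45 TPM, from 38, 34, 12 and 32 read pairs. Replicate 3 stood apart at the lower end. Of its exonic bases 24.3% are shared with exons of Gm49337 on the same strand, so its count is uncertain. Among the other members only Akt1s1 shared exonic bases with a gene on its strand, at 2.38%.

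Pik3r5 encodes p101, a regulatory partner of p110gamma. It lay at 28.9 ± 2.19 TPM, above Pik3cg in each library, with a difference of -1.09 ± 0.124 for Pik3cg minus Pik3r5 on the log2(TPM + 1) scale. Pik3r6, the alternative p110gamma partner, had 0 counts in every library, which allows up to 3 counts in each and covers counting error only. It was singled out after its values were seen.

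Pik3ap1 encodes BCAP, an adaptor known from B cells and myeloid cells. Its levels were 1.33, 0.23, 1.12 and 0.80 TPM, from 56, 9, 55 and 28 read pairs. Replicate 2 was lowest, and the libraries spanned a 5.71-fold range, the widest of the 44 genes. The 5 B cell markers summed to 9.36, 6.37, 6.61 and 2.45 TPM in the same libraries. The 5 macrophage and monocyte markers summed to 0.122 to 0.330 TPM, and Cd14 was at 0 throughout. Replicate 4 was the lowest library for the B cell sum and replicate 2 for Pik3ap1. The part of other cells in the Pik3ap1 level was not tested.

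Of the 3 listed brakes on the lipid signal, 2 were well expressed. Inpp4b, which encodes a phosphatase acting on PI(3,4)P2, lay at 67.8 ± 4.93 TPM, and Inpp5d, encoding SHIP1, which converts PIP3 to PI(3,4)P2, at 56.1 ± 3.51 TPM. Inpp5d lay below Inpp4b in each library, by -0.27 ± 0.046 on the log2(TPM + 1) scale. That gap widened to -1.31 with the principal transcript length, by which Inpp4b lay at 215.2 TPM, and to -1.05 without length. Both were above Pik3ca, Pik3cg and Pik3cb, and below Pik3cd, in every library. Pik3ip1, which encodes a transmembrane protein that restrains PI3K in resting T cells, lay far lower at 2.19, 3.40, 2.37 and 3.47 TPM. Replicates 2 and 4 were the higher libraries for Pik3ip1.

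Downstream of PIP3 the kinase genes differed in level. Akt1 exceeded 94.1% of detected protein-coding genes, Akt2 76.4% and Pdpk1 59.0%. Akt1 (ENSMUSG00000001729.14, mm10 chromosome 12, 112653821 to 112674884, minus strand) lay at 284.8, 280.5, 302.2 and 287.1 TPM, close to Pik3cd. Akt2 lay at 86.1, 84.2, 84.3 and 86.2 TPM and had the smallest spread of all tested members, with an SD of 0.0203 on the log2 CPM scale. Akt1 exceeded Akt2 3.39 ± 0.132-fold, a log2(TPM + 1) difference of 1.75 that was 0.96 without length, and made up 77.2 ± 0.665% of the TPM of this pair. Pdpk1, encoding PDK1, the kinase that phosphorylates the activation loop of AKT and S6 kinase, lay at 44.7 ± 2.68 TPM. Phlpp1, encoding a phosphatase that removes the hydrophobic motif phosphate of AKT, lay at 10.9 ± 0.98 TPM, below each of the 3 kinase genes in every library.

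**Figure D3:**
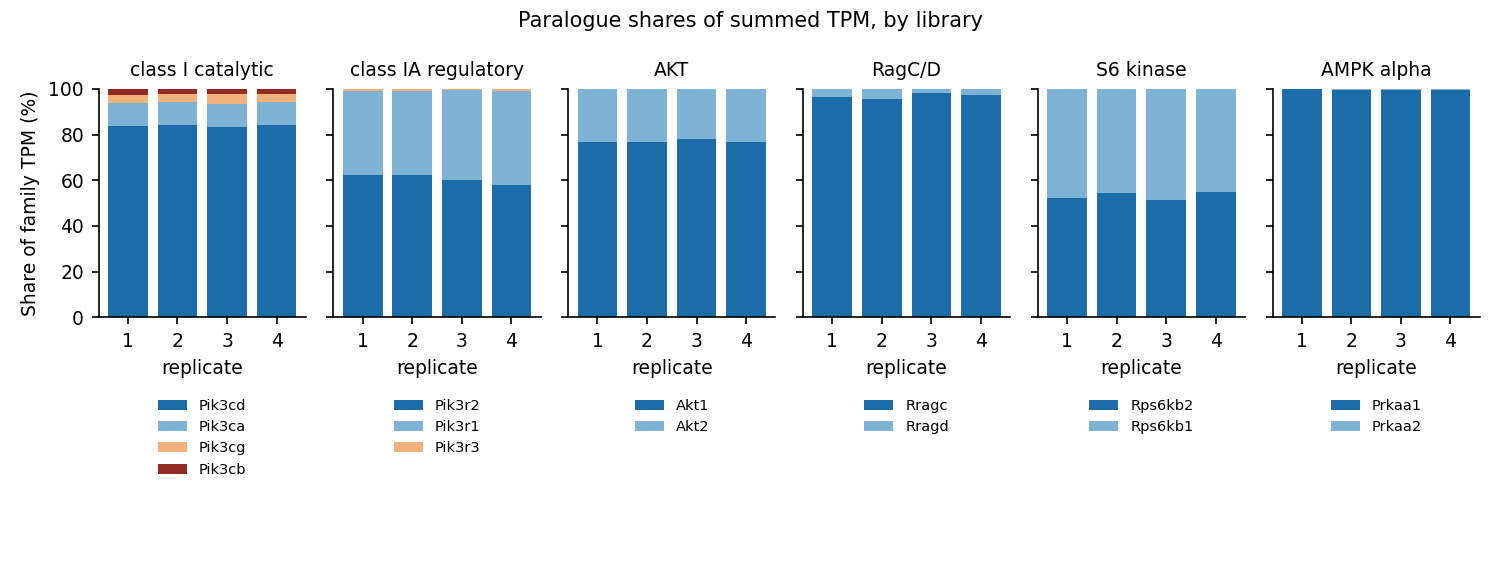
Share of each paralogue in the summed TPM of its listed family, in percent, as stacked bars for replicates 1 to 4. Pik3cd fills 83.9% of the class I catalytic bars on average, Akt1 77.2% of the AKT bars, Rragc 97.0% of the RagC/D bars and Prkaa1 99.6% of the AMPK alpha bars, while Rps6kb1 and Rps6kb2 divide theirs nearly evenly.

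The TSC complex, which keeps Rheb in its inactive GDP-bound state, was present with all 3 subunits. Tsc2, encoding the subunit with the GTPase-activating domain, lay at 56.8 ± 4.02 TPM. Tsc1, encoding its stabilising partner, lay at 22.0 ± 1.44 TPM, and the ratio of Tsc1 to Tsc2 was 0.389 ± 0.0078, between 0.378 and 0.396 over the libraries. Tsc1 minus Tsc2 was -1.33 on the log2(TPM + 1) scale with exonic length, -0.72 with the principal transcript length and -0.38 without length, so the size of this gap depends on the length used. Tbc1d7, the smallest subunit, lay at 28.7, 35.7, 28.8 and 33.9 TPM. Replicates 2 and 4 were the higher libraries for Tbc1d7. Tsc1 lay below Tbc1d7 by -0.50 ± 0.179 with exonic length, a difference of 0.085 with the principal transcript length and of 2.61 without length, so the order of these 2 genes depends on the length used.

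Rheb, the GTPase that activates mTOR complex 1, lay at 18.8, 21.3, 18.6 and 18.6 TPM. Replicate 2 was highest and the other libraries lay close together. Its level depended on length more than that of any other member: the exons of Rheb sum to 7721 bases and its principal transcript has 1784, and over the latter its mean was 83.7 TPM. The difference from Tsc2 was -1.51 ± 0.179 on the log2(TPM + 1) scale with exonic length and 0.55 with the principal transcript length.

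Both mTOR complexes had all their listed core subunits. Mtor, the kinase itself, lay at 44.0, 43.6, 45.3 and 49.8 TPM, with replicate 4 highest. Mlst8, the subunit shared by both complexes, lay at 61.5 ± 0.659 TPM. Rptor, the substrate-binding subunit of complex 1, lay at 33.1 ± 2.73 TPM. Rictor, which defines complex 2, lay at 23.2 ± 1.78 TPM, and Mapkap1, encoding its partner SIN1, at 57.9 ± 4.07 TPM. Rptor exceeded Rictor in each library, by 0.33, 0.61, 0.54 and 0.50 on the log2(TPM + 1) scale. The mean of 0.49 became 1.503 with the principal transcript length and 1.03 without length. Mtor stood above Rptor by 0.45 ± 0.066 with exonic length and at -0.32 with the principal transcript length, and the difference between Mtor and Mlst8 of -0.42 ± 0.101 was 1.14 without length.

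The 2 inhibitory subunits differed widely. Akt1s1, encoding PRAS40, the inhibitor of complex 1 that AKT phosphorylates, lay at 56.5 ± 3.6 TPM. Deptor, which encodes an inhibitor of both complexes, lay at 1.46, 1.04, 1.46 and 1.32 TPM, just above 1 TPM in every library. Akt1s1 exceeded Deptor 43.9 ± 9.75-fold. The log2(TPM + 1) difference of 4.63 was 5.40 with the principal transcript length and 3.56 without length.

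The Rag GTPases and Ragulator, the lysosomal platform for mTOR complex 1, were among the more abundant members, with 1 exception. Rraga lay at 142.4 ± 2.76 TPM and its dimer partner Rragc at 67.5 ± 3.59 TPM, a ratio of 2.11 ± 0.116. The Rraga to Rragc difference of 1.07 ± 0.08 in log2(TPM + 1) was 0.71 with the principal transcript length and 0.032 without length. Lamtor1, encoding the lipid-anchored Ragulator subunit, lay at 93.8 ± 3.71 TPM, and Lamtor2, encoding another subunit, at 69.4 ± 4.42 TPM. Rragd, the paralogue of Rragc, lay at 2.65, 2.91, 1.199 and 1.71 TPM, from 221, 223, 117 and 119 read pairs. Replicates 1 and 2 were higher than replicates 3 and 4. Rragc exceeded Rragd 22.6 to 55.5-fold and made up 97.0 ± 1.07% of the TPM of this pair. Flcn, encoding folliculin, which acts on RagC and RagD as a GTPase-activating protein, lay at 52.9 ± 1.71 TPM.

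This pair was uneven in level and its promoters differ in CG content, so the 250 bases before the RefSeq start of each are printed 5′ to 3′ (RefSeq, GRCm38.p6), with every CG dinucleotide in capitals. Both lie on the plus strand, at chr4:123917183-123917432 for Rragc and chr4:32982748-32982997 for Rragd.
Rragc: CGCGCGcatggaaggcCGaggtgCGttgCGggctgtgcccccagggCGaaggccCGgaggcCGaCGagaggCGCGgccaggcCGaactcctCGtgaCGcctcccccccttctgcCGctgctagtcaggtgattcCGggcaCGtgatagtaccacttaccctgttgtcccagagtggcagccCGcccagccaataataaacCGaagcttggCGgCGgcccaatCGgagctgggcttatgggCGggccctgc
Rragd: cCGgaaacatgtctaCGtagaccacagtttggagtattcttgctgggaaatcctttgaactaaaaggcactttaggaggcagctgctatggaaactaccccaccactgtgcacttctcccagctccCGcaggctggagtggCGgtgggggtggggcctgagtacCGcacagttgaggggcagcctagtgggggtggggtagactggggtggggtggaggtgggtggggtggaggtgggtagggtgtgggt
The Rragc window held 24 CG dinucleotides and the Rragd window 5, beside a median of 6 over all 32841 windows of this length.

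The listed amino acid brakes were lower than most of the listed Rag and Ragulator genes. GATOR1 is the GTPase-activating complex for RagA. Its subunit genes Nprl2, Nprl3 and Depdc5 lay at 29.1 ± 0.751, 16.1 ± 1.79 and 14.5 ± 0.776 TPM. Castor1, which encodes a cytosolic arginine sensor, lay at 8.56 ± 0.675 TPM. Nprl2 stood above Nprl3 by 0.82 ± 0.132 on the log2(TPM + 1) scale with exonic length, at -0.057 with the principal transcript length and at -1.01 without length. Depdc5 stood below Nprl2 by -0.96 ± 0.051 and turned to 1.49 without length. Each of these 4 genes was below Rraga, Rragc, Lamtor1 and Lamtor2, and above Rragd, in every library.

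The S6 kinases, which phosphorylate ribosomal protein S6 and act as outputs of mTOR complex 1, were the 1 paralogue pair of nearly equal level. Rps6kb1, encoding S6K1, lay at 28.7, 25.7, 27.5 and 28.2 TPM. Rps6kb2, encoding S6K2, lay at 31.6, 30.8, 29.1 and 34.0 TPM. Every Rps6kb2 value was above every Rps6kb1 value, with a difference of -0.18 ± 0.089 for Rps6kb1 minus Rps6kb2 on the log2(TPM + 1) scale. This order turned with length: the difference was 0.45 with the principal transcript length and 1.59 without length, and the share of Rps6kb2 fell from 53.3 ± 1.59% to 42.1% with the former and to 24.4% with the latter.

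LKB1 and AMPK, the energy-sensing brake, were well expressed, with 1 gene leading each type of AMPK subunit. Stk11, encoding LKB1, the kinase that activates AMPK, lay at 100.7, 92.8, 96.8 and 109.7 TPM. Prkag1, encoding the nucleotide-binding gamma subunit, lay at 170.4 ± 5.66 TPM. Only Pik3cd and Akt1 were higher by exonic length, and Lamtor1, Inpp4b and Stk11 also by principal transcript length. Prkab1, encoding the scaffolding beta subunit, lay at 58.2 ± 3.17 TPM. Prkaa1, encoding the catalytic subunit alpha-1, lay at 36.3, 34.0, 38.0 and 37.2 TPM. Prkaa2, encoding alpha-2, lay at 0.08, 0.10, 0.20 and 0.17 TPM from 10, 12, 30 and 18 read pairs, the lowest level of all members. Prkaa1 made up 99.6 ± 0.14% of the catalytic subunit TPM, and no library of one overlapped the other. The subunit genes of the other listed AMPK isoforms were lower than Prkag1 and Prkab1, with Prkag2 at 21.3 ± 1.46 TPM and Prkag3 at 0 counts in every library.

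The promoter windows of this pair, at chr15:5143611-5143860 on the plus strand for Prkaa1 and chr4:105109899-105110148 on the minus strand for Prkaa2, are printed in the same way, since it was the most uneven pair of paralogues.
Prkaa1: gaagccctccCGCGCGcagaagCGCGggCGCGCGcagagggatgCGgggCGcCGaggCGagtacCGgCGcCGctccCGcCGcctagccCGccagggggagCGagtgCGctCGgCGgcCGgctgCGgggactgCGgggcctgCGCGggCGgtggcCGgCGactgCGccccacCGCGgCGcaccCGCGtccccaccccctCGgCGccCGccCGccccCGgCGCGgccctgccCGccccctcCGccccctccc
Prkaa2: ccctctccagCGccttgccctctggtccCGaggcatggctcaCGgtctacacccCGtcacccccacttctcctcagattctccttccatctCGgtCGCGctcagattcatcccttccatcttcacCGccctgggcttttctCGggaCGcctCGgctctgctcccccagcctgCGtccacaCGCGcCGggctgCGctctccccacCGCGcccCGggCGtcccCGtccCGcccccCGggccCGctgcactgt
The Prkaa1 window held 45 CG dinucleotides, the most among the members with a matched window, and the Prkaa2 window 24. Pik3r3 and Pik3ap1, the other 2 members below 1 TPM in some library, had up to 23 in a window, and Pik3ip1 had 5. The largest count per window was 19 for Pik3cd, 19 for Pik3ca, 5 for Pik3cg and 32 for Pik3cb. Of these catalytic genes Pik3cd was the highest in level and Pik3cb the lowest. For the other paralogues it was 31 for Akt1, 10 for Akt2, 30 for Pik3r1 and 29 for Pik3r2. Whether CG content goes with level was not tested.

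Across the pathway 42 of the 44 genes were matched to at least 1 window before a RefSeq start, giving 54 windows with a median of 16 CG dinucleotides. No window was matched for Deptor and Rps6kb2. A pair of short motifs were searched on both strands. CACGTG, the E-box letters bound by factors such as MYC and TFEB, was present in 9.26% of the members' windows and in 6.02% of all windows. It lay before Lamtor1, Pik3ap1, Rheb, Rragc and Tbc1d7. CCGGAAGT, the letters of an ETS family site, was present in 12.96% and 2.88%, and lay before Akt1s1, Mapkap1, Mtor, Nprl2, Pik3ca, Rraga and Tsc2. Both motifs contain a CG, and all windows, with a median of 6 CG dinucleotides, were not matched to the members' windows for CG content. A match is a description of the sequence only.

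Activators were more abundant than inhibitors at the median, by a modest margin. The 21 activators had a median of 44.7 ± 2.68 TPM and the 18 inhibitors one of 30.2 ± 1.62 TPM, with 20 and 17 of them detected. The 5 genes in neither class, the 4 regulatory subunits and Flcn, had a median of 28.0 ± 0.796 TPM. Activators minus inhibitors came to 0.56, 0.41, 0.65 and 0.58 on the log2(TPM + 1) scale, positive in each library. The ranges of the classes overlapped almost wholly, from 0.869 to 291.8 TPM for activators and from 0.137 to 170.4 TPM for inhibitors. The margin depended on who was counted: it was 0.17 with the regulatory subunits and Flcn among the activators, and 0.99 without Stk11 and the AMPK genes. No test was made of this difference, since the genes of a class are not replicates.

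Within the pathway the balance changed from step to step. At the PI3K step the median of the catalytic and adaptor genes was 12.99 ± 0.974 TPM and that of the 3 inhibitors 56.1 ± 3.51 TPM, so inhibitors were higher in 4 of 4 libraries. By sum the order was the opposite, with 348.6 ± 27.1 TPM for the activators, most of it Pik3cd, and 126.8 ± 8.54 TPM for the inhibitors. At the AKT step the kinases stood at a median of 85.2 ± 1.09 TPM against 10.9 ± 0.98 TPM for Phlpp1. At the Rheb step the TSC genes had a median of 31.8 ± 3.58 TPM and Rheb 19.3 ± 1.33 TPM, an order that turned with the principal transcript length, to 1.23 ± 0.099 in favour of Rheb on the log2(TPM + 1) scale. In the mTOR complexes the subunits stood at 45.7 ± 2.84 TPM and the 2 inhibitors at a median of 28.9 ± 1.73 TPM. This median is the midpoint of Akt1s1 and Deptor in TPM. Akt1s1 alone lay above the subunit median in every library, so the order at this step rests on Deptor. On the log2(TPM + 1) scale the midpoint is taken between the logs, and activators minus inhibitors came to 2.02 ± 0.0604. In the amino acid branch the listed Rag and Ragulator genes stood at 71.8 ± 1.78 TPM against 15.3 ± 1.2 TPM for GATOR1 and Castor1. In the AKT, mTOR complex and amino acid steps the activators were higher in 4 of 4 libraries by both lengths.

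**Figure D4:**
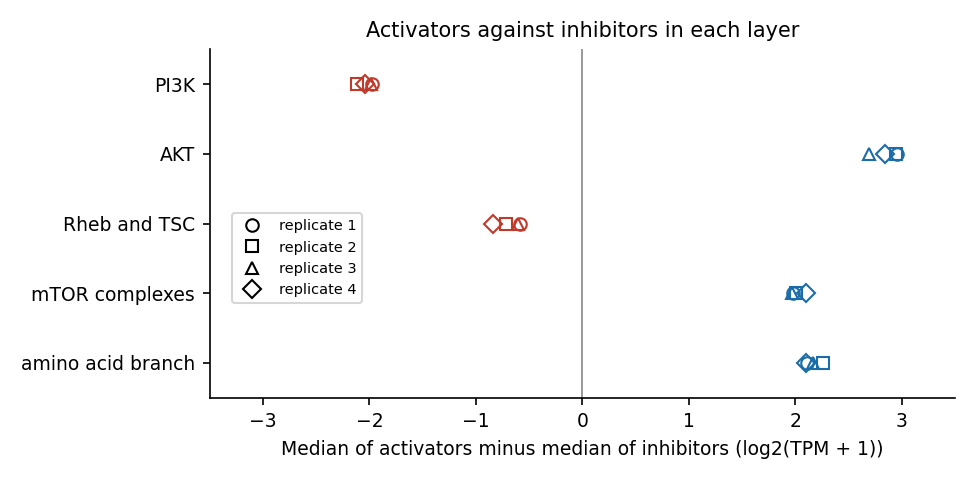
Median of activators minus median of inhibitors on the log2(TPM + 1) scale at 5 steps of the pathway, with 1 symbol per replicate and exonic length. The PI3K step and the step of Rheb and TSC lie below 0 and the AKT, mTOR complex and amino acid steps lie above 0 in all 4 libraries.

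The genes of the pathway outside the 44 were also mostly present. Of 48 such genes on a separate list 44 were at 1 TPM or more in every library. Among the outputs Rps6, encoding ribosomal protein S6, lay at 1077 ± 65.7 TPM and Eif4b, encoding a translation initiation factor, at 1022 ± 31.7 TPM. Among the stress-induced inhibitors Ddit4, encoding REDD1, lay at 105.8 ± 11.5 TPM and Sesn2, encoding a leucine sensor, at 46.9 ± 4.0 TPM. The highest of the GATOR2 and KICSTOR genes were Sec13 at 229.4 ± 6.34 TPM and Seh1l at 133.7 ± 4.55 TPM, both of which also belong to the nuclear pore, and the highest of the lysosomal scaffold were Lamtor5 at 141.1 ± 11.4 TPM and Lamtor4 at 37.9 ± 7.38 TPM. Prr5 and Prr5l, encoding accessory subunits of mTOR complex 2, lay at only 2.79 ± 1.16 and 1.00 ± 0.243 TPM. Pik3c3, the class III PI3K, and its partner Pik3r4 lay at 34.2 ± 0.697 and 26.3 ± 2.72 TPM. Cab39, encoding MO25, the scaffold of LKB1, lay at 198.5 ± 2.96 TPM.

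No tested member passed the test of spread between replicates. edgeR's quasi-likelihood fit over 12285 genes called 28 (0.228%) as more variable than genes of like abundance at a Benjamini-Hochberg adjusted p under 0.05. Of the 41 members tested 0 were called, and 0 were among the dispersion outliers of DESeq2, which made up 0.554% of the genes. At an unadjusted p under 0.05 the fit had 1 member, Rragd, and 5.42% of all genes. Rragd had an SD of 0.60 on the log2 CPM scale, the largest among the members, and an adjusted p of 0.74. The median SD was 0.0802 over tested members and 0.102 over all tested genes, which were not matched to the members for abundance. Of the 48 other pathway genes 46 were tested and 0 were called.

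Replicate 4 was often high for long genes, members included. It was the highest library for 19 of the 41 tested members and for 30.0% of all tested genes. Of the 20 tested members with at least 6000 exonic bases, among them Pik3cd with 6259, replicate 4 was the highest library for 13 and lay above the mean of the others for 16, with a median excess of 0.11 on the log2 CPM scale. Over all 3201 tested genes of that length it lay above the mean of the others for 68.5% and was highest for 48.9%, with a median excess of 0.063. Among the 21 shorter members it lay above for 10, beside 43.9% of all shorter genes. In replicate 2 the long members lay lower, with a median of -0.092, beside -0.038 over all tested genes of that length. The long members shared the direction of this pattern with long genes in general, with a larger median shift in both replicates. The split at this length was chosen after the values were seen.

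**Figure D5:**
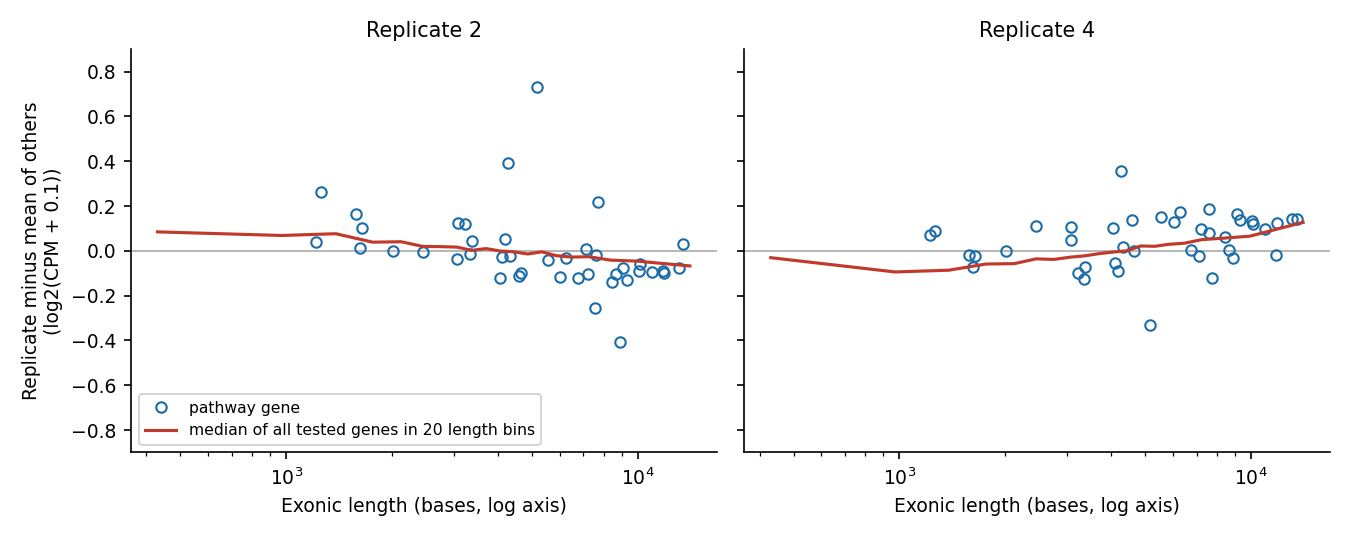
Difference of each tested pathway gene between 1 replicate and the mean of the others, on the log2(CPM + 0.1) scale, against its exonic length on a log axis, for replicates 2 and 4. Points are the 41 tested members and the line is the median of all tested genes in 20 bins of length. The line falls with length in replicate 2 and rises in replicate 4, and most long members lie on the same side of 0 as the line.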

How the data were processed

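The 4 deposited tables hold the authors' raw gene counts. Per the file headers, read pairs from STAR alignments (STAR version not stated there) were assigned to the exons of each gene by featureCounts 1.4.6-p4, with GENCODE M13, reverse-stranded, both mates mapped. Per the labels the build is mm10, and the labels name total RNA-seq while the linked library protocol is named for a polyA+ method, which was not settled. Totals were 53619400, 48931322, 63313389 and 46192242 in replicates 1 to 4.

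From these counts TPM was computed with the deposited exonic length. Symbols came from GENCODE M21, which matched 50376 of 50600 identifiers. The test of replicate spread used edgeR 4.0.16 (R 4.3.3) with TMM scaling (filterByExpr, intercept-only design, robust quasi-likelihood), with each gene's residual quasi-dispersion set against the trended prior (13.9 prior degrees of freedom, F distribution, upper tail) and Benjamini-Hochberg adjustment at 0.05. DESeq2 1.42.0 was an alternative. The edgeR test was tried on simulated T cell libraries, 4 in number, with 12149 genes left after filtering. It recovered 65 of 100 genes given extra spread of SD 0.5 (log2), 90 of 100 given SD 1, and called 7 of the 11949 unchanged genes. Extra spread was given only to genes with a mean of at least 100 counts, so recovery at lower counts was not tested. Gene pairs were compared within libraries on log2(TPM + 1) by exact sign-flip permutation with Python 3.11.15, numpy 2.4.6, scipy 1.17.1 and pandas 2.3.3. No 2 libraries agreed within sampling noise (chi-square per degree of freedom 9.14 to 23.7).

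The members, their roles, the pairs and the other pathway genes were chosen with earlier results of these data known. Every member is named. Of the other pathway genes, the 2 highest in each of 7 groups are named, and any that passed the spread test. Some others, such as Rragb and Lamtor3, are named beside related members and were picked after their values were seen. Alternatives covered scaling, length, pseudocount, filters, detection floors, class membership and each replicate left out. The principal transcript length (GENCODE M21, at most the exonic length) and the sum over a step were added after the data were seen. Protein sequences planned for some members are not shown here. A result for 1 other pathway gene and 1 marker gene is not reported here.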

Additional observations from a re-analysis of the deposited data

Results flagged for a closer look

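Each of 81 values (member levels, pair differences and shares) was screened for a library far from the other 3, and 10 met the criterion, a gap to the nearest library above the 95% critical value of Dixon's ratio. Chance alone gives about 1 in 20. Pik3cd in replicate 4 lay at 326.8 TPM, above the others. Prkab1 in replicate 4 lay at 62.9 TPM, also above. Rheb in replicate 2 was high at 21.3 TPM. Rraga in replicate 3 was high at 146.5 TPM, and Pik3r3 in replicate 3 was low at 0.12 TPM. The remaining values all belong to replicate 3. The difference between Pik3r2 and Pik3r3 was 4.75 there, which rests on the same low Pik3r3 value. The difference between Akt1 and Akt2 was 1.83, and the Akt1 share, which restates it, was 78.2%. Pik3cg minus Pik3r5 was -0.91 and Pik3cd minus Pik3r1 was 3.81, each closer to 0 than in the other libraries.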

How the results depend on the processing

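No paired analysis was possible because the series has 1 group. The detected count was 41 of 44 with each replicate left out, 41 at a floor of 0.5 TPM, 38 at 5 TPM and 36 at 10 TPM. The 28 genes called for spread became 142 without a count filter, 68 as DESeq2 dispersion outliers and 15 without robust estimation, and 14 to 27 with a replicate left out, the 14 being without replicate 3. The count of called members was 0 under each of these. The activator minus inhibitor difference of 0.55 became 0.17 with the regulatory subunits and Flcn as activators, 0.72 with means, 0.99 without Stk11 and AMPK, and 0.78 with the principal transcript length, and was 0.52 to 0.60 with a replicate left out. Without length the family shares became 79.0% for Pik3cd, 39.2% for Pik3r2, 66.1% for Akt1, 95.4% for Rragc, 24.4% for Rps6kb2 and 99.4% for Prkaa1. With the principal transcript length Pik3cd became 85.5% and Rps6kb2 42.1%. Without length these differences reversed: Pik3r1 minus Pik3r2 to 0.60, Rps6kb1 minus Rps6kb2 to 1.59, Tsc1 minus Tbc1d7 to 2.61, Mtor minus Mlst8 to 1.14, Nprl2 minus Nprl3 to -1.01 and Depdc5 minus Nprl2 to 1.49. With the principal transcript length Rps6kb1 minus Rps6kb2 reversed to 0.45, Tsc1 minus Tbc1d7 to 0.085, Mtor minus Rptor to -0.32, Nprl2 minus Nprl3 to -0.057, Rheb minus Tsc2 to 0.55, and the Rheb step to 1.23. The PI3K step reversed to 1.45 with sums. Length is what these alternatives change by construction, and which length fits the transcripts in these cells was not tested. Of the other pair values under an alternative 65 moved and 194 did not.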

Other observations

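Among the other pathway genes tested for spread between replicates, none passed after adjustment in edgeR's fit. Sesn3, a sestrin gene regulated by FOXO factors, lay at 28.3, 27.2, 28.2 and 34.3 TPM, with replicate 4 highest (edgeR adjusted p = 0.83). Lamtor4, a Ragulator gene, lay at 43.7, 37.7, 27.5 and 42.7 TPM, with replicate 3 lowest (edgeR adjusted p = 0.68). Of the 46 genes tested, 3 had an unadjusted p under 0.05 in that fit, these among them, beside 5.42% of all 12285 genes tested. Both were named here after their values were seen.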
